A study of Homo sapiens with 18 samples.

Results

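The interleukin-1 family signals injury in skin and mucosa. The 10 genes described here are 4 agonists (IL1A, IL1B, IL36G and IL33), 2 receptor antagonists (IL1RN and IL36RN) and 4 receptor chains (IL1R1, IL1R2, IL1RAP and IL1RL1). They were chosen by gene symbol in the deposited count table, and all 10 were found among its 58735 genes. A filter on low counts kept 9 of them and 17409 genes in all, and IL36G was the member that did not pass.

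Interleukin-1α and interleukin-1β, made by IL1A and IL1B, bind the receptor IL1R1, which signals only after the shared accessory chain IL1RAP has joined it. IL1RN, the interleukin-1 receptor antagonist, occupies IL1R1 without recruiting the accessory chain, and IL1R2 is a decoy receptor without a signalling domain. Interleukin-33 uses IL1RL1 (ST2) with IL1RAP, and interleukin-36γ uses IL1RL2 with IL1RAP and is opposed by the antagonist IL36RN. Keratinocytes store interleukin-1α and release it when they are damaged, and interleukin-1 in turn raises chemokines and NF-kB feedback genes in neighbouring cells.

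The libraries came from HaCaT, a spontaneously immortalised human skin keratinocyte line, and TIGK, a telomerase-immortalised human gingival keratinocyte line. Each line was sampled without a scratch (0 h) and at 6 h and 24 h after a scratch wound in culture, with 3 libraries in each of the 6 groups, 18 in all. The submitters asked how the lines differ at each time and how each line responds relative to its own 0 h. Each tissue is represented by 1 line, so tissue and line cannot be told apart, and no unscratched culture at 6 h or 24 h was among the samples, so the scratch and the time in culture cannot be told apart either. Libraries of a group are named A, B and C after the columns of the deposited table. The labels do not say that they came from separate cultures, so the p-values may measure only technical spread among the libraries.

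Library totals ran from 14238090 to 25011331 counts. TIGK 0 h C and TIGK 6 h C listed 26246 and 25161 genes with a count and stood apart from the other 16 libraries, which listed 21164 to 22799. Summed keratinocyte markers lay between 41553 and 51571 CPM (read counts scaled to library size) in every library. Summed fibroblast markers were higher in TIGK and higher at 24 h in both lines. They lay between 24.9 and 29.1 CPM at 0 h, 21.0 and 23.8 CPM at 6 h and 37.7 and 40.8 CPM at 24 h in HaCaT, and between 237 and 274, 241 and 289, and 391 and 435 CPM in TIGK. COL1A1 and DCN held most of the TIGK signal, and mean DCN went there from 100.4 CPM at 0 h to 230.4 CPM at 24 h. The other fibroblast markers were low: COL1A2 had 5 counts and PDGFRA 26 in all libraries. Mean levels in TIGK at 0 h and 24 h were 0.292 and 1.38 CPM for COL3A1, 2.30 and 4.72 CPM for LUM, and 1.55 and 1.77 CPM for PDGFRB. Summed endothelial markers went from 2.85 to 3.27 CPM at 0 h to 6.29 to 8.22 CPM at 24 h in HaCaT, nearly all VWF. In TIGK they went from 1.67 to 3.63 CPM to 4.99 to 7.18 CPM. There mean KDR went from 1.12 to 4.53 CPM and VWF from 0.429 to 1.01 CPM, while PECAM1 went from 0.988 to 0.309 CPM. CDH5 had 3 counts in all libraries. Summed immune markers reached 3.46 CPM in HaCaT and 30.1 CPM in TIGK. CSF1R held most of the TIGK sum, with group means of 13.7 to 20.6 CPM. It was followed by CD14 (3.30 to 5.31 CPM) and ITGAX (2.50 to 4.51 CPM). The TIGK group means of PTPRC, CD3E, CD68 and CD79A were at most 0.315 CPM. The immune marker LYZ and the mast cell markers TPSAB1, CPA3, MS4A2 and HDC had no count in any library, and the fifth mast cell marker, KIT, ran up to 6.14 CPM. The part of these markers in the differences between the lines and in the 24 h changes below was not tested. In RNA from whole cultures, fewer cells of a type and less RNA per cell cannot be told apart.

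Of the 10 genes, 8 lie in 2 groups on chromosome 2 (hg38). The receptors IL1R2, IL1R1 and IL1RL1 lie within 360.2 kb, from 101991844 to 102352037, and IL1A, IL1B, IL36G, IL36RN and IL1RN lie within 360.1 kb, from 112773915 to 113134016. IL1RAP is on chromosome 3 (190514051 to 190659750, plus strand) and IL33 on chromosome 9 (6215786 to 6257983, plus strand). The RefSeq table of promoters (GRCh38.p14) held 20 transcript starts of the 10 genes. The 250 bases upstream of 4 of them are printed because IL1A and IL1B were the members called higher in HaCaT at 24 h, IL1RL1 was the member called at 6 h in both lines, and IL1RL1 has a distal and a proximal start.

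IL1A, chr2:112784494-112784743, minus strand: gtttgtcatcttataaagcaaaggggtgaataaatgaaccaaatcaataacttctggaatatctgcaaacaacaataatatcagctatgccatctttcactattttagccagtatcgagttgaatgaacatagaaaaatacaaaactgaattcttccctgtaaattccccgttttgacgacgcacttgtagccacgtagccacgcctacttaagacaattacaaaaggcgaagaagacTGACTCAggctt
IL1B, chr2:112836780-112837029, minus strand: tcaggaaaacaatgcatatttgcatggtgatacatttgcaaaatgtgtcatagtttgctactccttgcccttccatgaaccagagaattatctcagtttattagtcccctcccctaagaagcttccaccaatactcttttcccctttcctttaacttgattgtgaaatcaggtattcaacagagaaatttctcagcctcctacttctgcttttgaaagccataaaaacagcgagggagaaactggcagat
IL1RL1 distal start, chr2:102311313-102311562, plus strand: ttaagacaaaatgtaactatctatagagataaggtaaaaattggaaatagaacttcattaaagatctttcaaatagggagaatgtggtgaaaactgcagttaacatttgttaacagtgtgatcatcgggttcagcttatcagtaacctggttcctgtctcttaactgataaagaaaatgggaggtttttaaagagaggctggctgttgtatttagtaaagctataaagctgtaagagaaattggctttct
IL1RL1 proximal start, chr2:102337007-102337256, plus strand: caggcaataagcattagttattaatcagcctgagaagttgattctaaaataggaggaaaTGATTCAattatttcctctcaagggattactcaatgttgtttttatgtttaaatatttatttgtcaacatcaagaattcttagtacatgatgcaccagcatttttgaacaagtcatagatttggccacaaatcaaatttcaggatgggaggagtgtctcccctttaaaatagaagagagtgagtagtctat

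Each sequence runs 5′ to 3′ toward the start, and capitals mark matches to the AP-1 element TGANTCA, searched on both strands. The IL1A match begins 12 bases before its RefSeq start, and the match at the proximal start of IL1RL1 begins 191 bases before it. The IL1B and distal IL1RL1 windows held no match. Over all starts, 4 of the 20 windows, from IL1A (2 overlapping windows), IL1RL1 and IL1RN, held the AP-1 element, against 6.57% of 35116 RefSeq promoter windows of the same length. The NF-kB consensus was in none of the 20, against 5.21% of all windows. A match or its lack describes these letters only. The distal start of IL1RL1 is known from mast cells and the proximal one from fibroblasts. The counts are per gene, so neither the starts nor the soluble and membrane forms of ST2 can be told apart here.

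**Figure D1:**
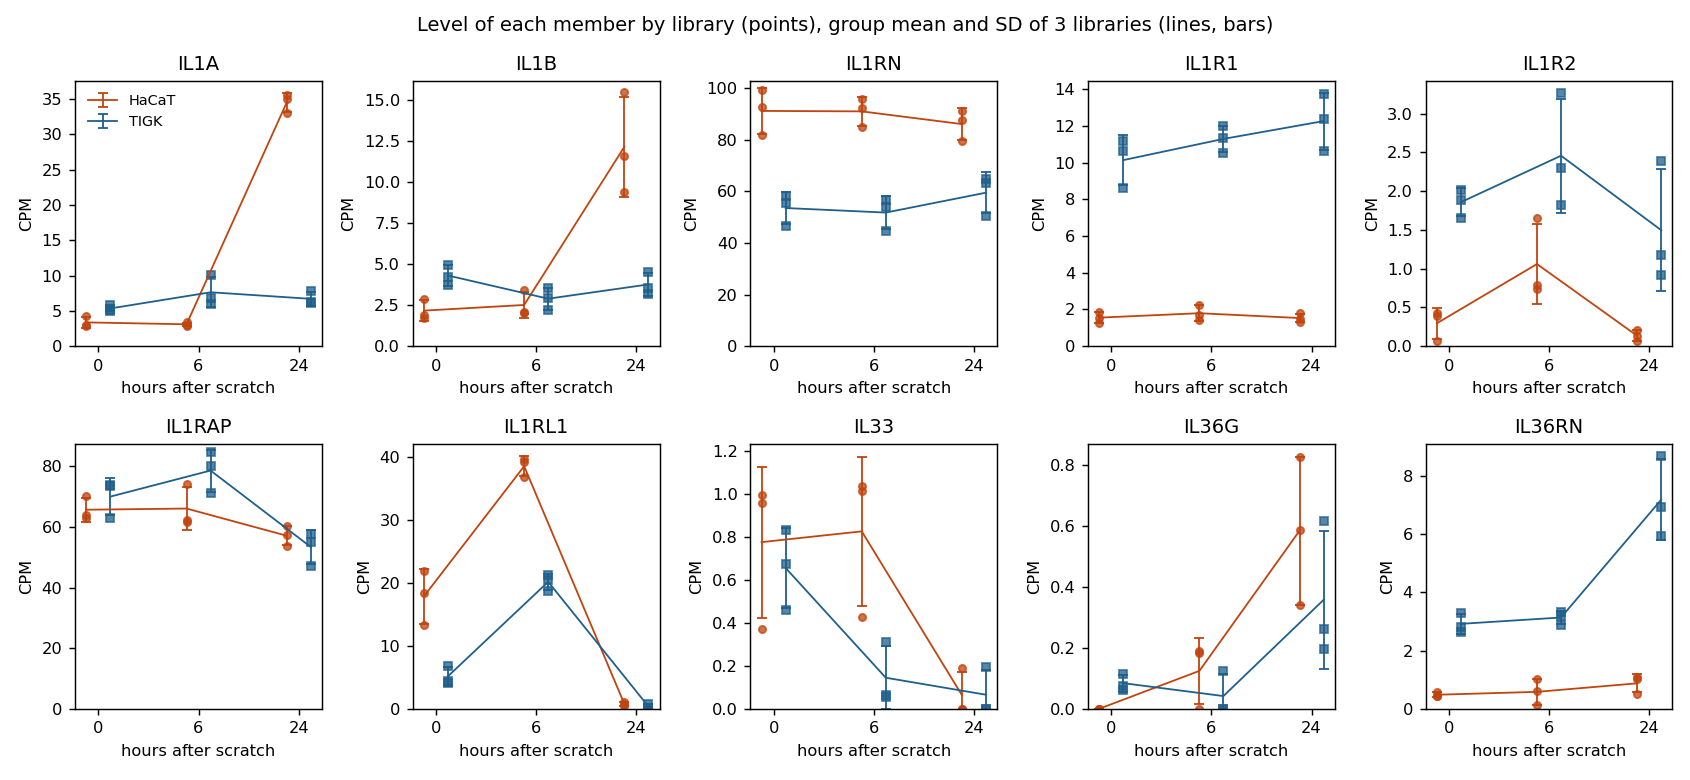
Level of each of the 10 genes in CPM (y axis, from 0, scaled per gene) at 0, 6 and 24 h after the scratch (x axis, evenly spaced, not to scale). Points are the 3 libraries of a group, lines join group means and bars are SDs. IL1A and IL1B rise in HaCaT at 24 h, IL1RL1 peaks at 6 h and is near 0 at 24 h in both lines, and IL1R1 and IL36RN stay higher in TIGK.

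IL1A, the alarmin agonist, had the largest rise among the 9 tested members. The untested IL36G had no count in HaCaT at 0 h, so its rise has only a lower bound. In HaCaT the level of IL1A was 4.29, 2.79 and 2.99 CPM in libraries A, B and C at 0 h, 2.86, 3.36 and 3.04 CPM at 6 h, and 33.0, 35.1 and 35.6 CPM at 24 h. In TIGK it was 5.16, 5.02 and 5.82 CPM at 0 h, 6.85, 10.02 and 6.01 CPM at 6 h, and 6.22, 6.07 and 7.80 CPM at 24 h. All 3 HaCaT libraries at 24 h lay far above every other library, and the HaCaT libraries at 0 h and 6 h lay below the TIGK libraries of the same time. The HaCaT mean went from 3.36 ± 0.817 CPM (SD, n = 3) to 34.5 ± 1.37 CPM at 24 h, a 10.3-fold rise (log2 fold change 3.36, SE 0.19, adjusted p = 2.17e-12, edgeR quasi-likelihood test with Benjamini-Hochberg adjustment over all genes tested, called under 0.05). In TIGK the 24 h value was 1.25-fold above 0 h with an adjusted p of 0.212. The 24 h responses of the lines differed by 3.04 on the log2 scale (SE 0.27, adjusted p = 2.33e-08). The order of the lines turned over: IL1A was 1.60-fold lower in HaCaT than in TIGK at 0 h (adjusted p = 0.00538) and 2.46-fold lower at 6 h (adjusted p = 4.48e-06), and 5.16-fold higher at 24 h (adjusted p = 3.16e-11).

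IL1B, the agonist made as a precursor that caspase-1 cleaves, also rose in HaCaT at 24 h, at a lower level than IL1A. In HaCaT it was 2.88, 1.92 and 1.68 CPM at 0 h, 2.03, 2.08 and 3.41 CPM at 6 h, and 11.6, 9.41 and 15.5 CPM at 24 h. TIGK held 3.75, 4.96 and 4.20 CPM at 0 h, 3.53, 2.19 and 2.95 CPM at 6 h, and 4.52, 3.20 and 3.56 CPM at 24 h. The HaCaT libraries at 24 h again lay above all others, and at 6 h the lines overlapped. In TIGK the 6 h libraries lay below those at 0 h without a call (adjusted p = 0.317). Those of IL1A lay above, also without a call (adjusted p = 0.167). The rise in HaCaT was 5.61-fold (log2 2.49, SE 0.27, adjusted p = 1.03e-07), and the responses of the lines at 24 h differed by 2.68 on the log2 scale (SE 0.38, adjusted p = 1.91e-05). HaCaT was 1.99-fold lower than TIGK at 0 h (adjusted p = 0.00308) and 3.23-fold higher at 24 h (adjusted p = 3.35e-06). At 6 h the log2 difference was -0.20 (95% interval -0.82 to 0.41, adjusted p = 0.553). The calls of IL1A and IL1B at 24 h and of their line difference held in every alternative setting in which they were refitted.

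IL36G, the interleukin-36γ agonist of stratified epithelium, was close to the detection limit. In libraries A, B and C it had 0, 0 and 0 counts in HaCaT at 0 h, 3, 0 and 3 at 6 h, and 13, 5 and 9 at 24 h. In TIGK it had 1, 2 and 2 counts at 0 h, 0, 2 and 0 at 6 h, and 3, 4 and 9 at 24 h. In both lines the 24 h libraries were above the 0 h ones, and the lines overlapped at 24 h. HaCaT at 24 h, with a mean of 0.585 ± 0.243 CPM, was at least 3.10-fold higher than at 0 h, taking 3 counts in each 0 h library as the limit. IL36G was not tested after the filter. In the fit without a filter its HaCaT rise at 24 h had an adjusted p of 0.00317, and its TIGK value an adjusted p of 0.373.

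IL33, the nuclear alarmin read by ST2, was low everywhere and was lowest at 24 h. In HaCaT it had 15, 6 and 16 counts at 0 h, 16, 17 and 7 at 6 h, and 3, 0 and 0 at 24 h. In TIGK it had 11, 8 and 22 counts at 0 h, 1, 5 and 1 at 6 h, and 3, 0 and 0 at 24 h. The 24 h libraries lay below the 0 h ones in both lines, while at 6 h HaCaT overlapped its 0 h libraries and TIGK lay below its own without a call (adjusted p = 0.22). The pooled counts at 24 h were 11.8-fold lower than at 0 h in HaCaT (95% counting interval 3.74 to 59.8, edgeR adjusted p = 0.00949) and 10.3-fold lower in TIGK (interval 3.28 to 51.9, adjusted p = 0.0152). The HaCaT call was lost without HaCaT 24 h C (adjusted p = 0.0516), and the TIGK call without TIGK 0 h C (0.0519), 24 h B (0.0728) or 24 h C (0.0654). At 6 h HaCaT was 5.81-fold higher than TIGK by pooled counts (interval 2.57 to 15.4, adjusted p = 0.0156). That call was lost without TIGK 6 h A (adjusted p = 0.0653), TIGK 6 h C (0.0747), HaCaT 6 h B (0.0509) or both TIGK C libraries that stand apart (0.0849).

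IL1RN, the antagonist, was the most abundant member and did not pass the test for a response in either line. HaCaT held 92.6, 81.8 and 99.3 CPM at 0 h, 95.8, 85.0 and 92.4 CPM at 6 h, and 79.4, 87.7 and 91.3 CPM at 24 h. TIGK held 58.4, 55.6 and 46.7 CPM at 0 h, 56.8, 54.1 and 44.6 CPM at 6 h, and 64.8, 50.5 and 63.3 CPM at 24 h. Every HaCaT library lay above every TIGK library. HaCaT was 1.71-fold higher at 0 h (adjusted p = 1.15e-06), 1.76-fold higher at 6 h (5.57e-07) and 1.45-fold higher at 24 h (0.000165). From 0 h to 24 h the log2 change was -0.08 in HaCaT (95% interval -0.32 to 0.15) and 0.16 in TIGK (interval -0.08 to 0.39).

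The ratio of antagonist to agonist transcripts was taken per library from the authors' FPKM values (fragments per kilobase of gene, scaled to depth), which allow genes of different length to be set against each other. IL1RN over the sum of IL1A and IL1B was 9.64, 13.01 and 15.6 in HaCaT at 0 h, 14.7, 11.6 and 11.2 at 6 h, and 1.27, 1.38 and 1.29 at 24 h. In TIGK it was 4.92, 4.31 and 3.50 at 0 h, 3.99, 3.06 and 3.62 at 6 h, and 4.54, 3.99 and 4.03 at 24 h. HaCaT thus had the highest ratios at 0 h and 6 h and the lowest at 24 h, with no overlap with TIGK at any time, and the TIGK times overlapped each other. The HaCaT mean was 12.8 ± 3.00 (SD, n = 3) at 0 h and 1.31 ± 0.0588 at 24 h, and the TIGK means were 4.25 ± 0.713 and 4.19 ± 0.305. With 3 libraries against 3, a two-sided exact permutation test cannot go below p = 0.1, so no test of the ratio is given. The ratio is one of transcripts and says nothing of secreted protein.

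**Figure D2:**
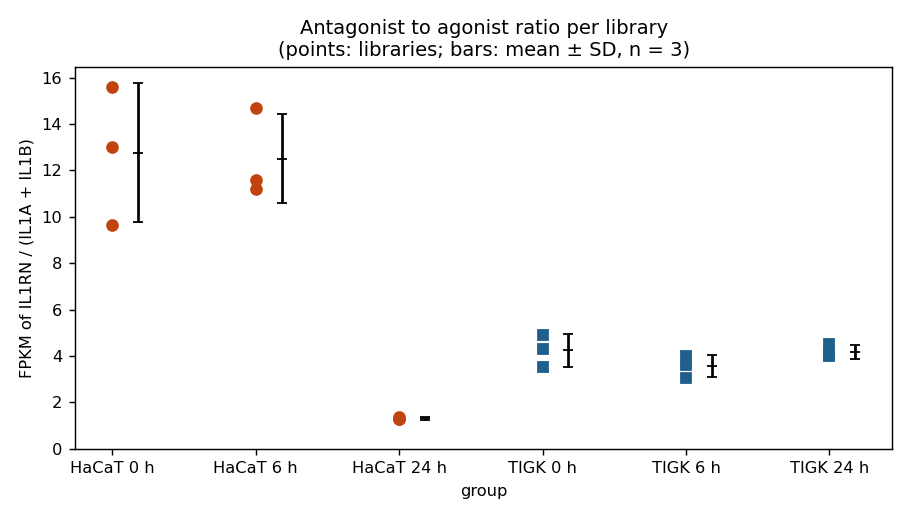
FPKM of IL1RN divided by the summed FPKM of IL1A and IL1B (y axis, no unit) in each group (x axis). Points are libraries and bars to their right the mean ± SD (n = 3). HaCaT lies above 9 at 0 h and 6 h and at 1.27 to 1.38 at 24 h, and TIGK lies between 3.06 and 4.92 throughout.

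IL36RN, the antagonist of interleukin-36, was the reverse of IL1RN in being lower in HaCaT. In HaCaT it was 0.577, 0.433 and 0.437 CPM at 0 h, 1.02, 0.122 and 0.609 CPM at 6 h, and 1.08, 1.02 and 0.522 CPM at 24 h. TIGK held 2.64, 2.83 and 3.29 CPM at 0 h, 3.33, 3.20 and 2.89 CPM at 6 h, and 6.94, 5.94 and 8.68 CPM at 24 h. All TIGK libraries exceeded all HaCaT libraries, and the TIGK libraries at 24 h stood above those at 0 h and 6 h. TIGK rose 2.45-fold by 24 h (log2 1.29, SE 0.32, adjusted p = 0.00285). The HaCaT value was 1.80-fold above 0 h with an adjusted p of 0.183, and the responses of the lines were not shown to differ (log2 difference -0.44, 95% interval -1.72 to 0.84, adjusted p = 0.698). HaCaT was 6.01-fold lower than TIGK at 0 h (adjusted p = 6.26e-06), 5.36-fold lower at 6 h (1.12e-05) and 8.15-fold lower at 24 h (1.36e-07).

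IL1R1, the signalling receptor of both interleukin-1 agonists, was lower in HaCaT at each of the 3 times. The HaCaT libraries held 1.54, 1.24 and 1.87 CPM at 0 h, 1.71, 1.41 and 2.25 CPM at 6 h, and 1.78, 1.5 and 1.305 CPM at 24 h. The TIGK libraries held 11.2, 10.6 and 8.59 CPM at 0 h, 11.98, 11.3 and 10.5 CPM at 6 h, and 12.4, 10.6 and 13.7 CPM at 24 h. Each TIGK library held several times the level of any HaCaT library. HaCaT was lower by 6.49-fold at 0 h (adjusted p = 7.74e-11), 6.27-fold at 6 h (7.75e-11) and 7.98-fold at 24 h (1.39e-11). No response to the scratch was called in either line, and from 0 h to 24 h the log2 change was -0.02 in HaCaT (95% interval -0.58 to 0.55) and 0.28 in TIGK (interval -0.11 to 0.67). The antisense gene model that overlaps IL1R1 had 0 counts.

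IL1R2, the decoy receptor, was also lower in HaCaT, at low counts. In HaCaT it had 6, 7 and 1 counts at 0 h, 26, 12 and 13 at 6 h, and 1, 3 and 2 at 24 h. In TIGK it had 27, 35 and 50 counts at 0 h, 49, 29 and 42 at 6 h, and 18, 14 and 35 at 24 h. HaCaT was highest at 6 h, with no overlap with its other times, and in CPM every TIGK library exceeded the HaCaT libraries of its time. HaCaT was 6.21-fold lower at 0 h (adjusted p = 0.000204) and 10.8-fold lower at 24 h (6.35e-05). At 6 h it was 2.31-fold lower (adjusted p = 0.0277), a call lost without TIGK 6 h A (0.127), HaCaT 6 h B (0.105), HaCaT 6 h C (0.0985) or both TIGK C libraries that stand apart (0.0552). The HaCaT value at 6 h was 3.54-fold above 0 h, with an unadjusted p of 0.00427 and an adjusted p of 0.31.

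IL1RAP, the accessory chain shared by all the signalling receptors of these ligands, was high and nearly level between the lines. Its group means ran from 57.1 ± 3.22 to 66.1 ± 7.09 CPM in HaCaT and from 53.4 ± 5.45 to 78.6 ± 6.93 CPM in TIGK (SD, n = 3). In TIGK it was 73.4, 73.7 and 63.0 CPM at 0 h, 84.6, 80.1 and 71.0 CPM at 6 h, and 57.7, 55.2 and 47.3 CPM at 24 h. The TIGK libraries at 24 h lay below those of the earlier times. TIGK fell 1.31-fold by 24 h (log2 -0.39, SE 0.10, adjusted p = 0.00328), and the HaCaT log2 change was -0.20 (adjusted p = 0.126, and 0.0364 when only the compared libraries were fitted). The lines differed at 6 h, where HaCaT was 1.19-fold lower (adjusted p = 0.0286), a call lost without TIGK 6 h A (0.140), TIGK 6 h B (0.0839), HaCaT 6 h A (0.114) or HaCaT 6 h C (0.115). Per length, IL1RAP over IL1R1 was 26.5 ± 4.16 in HaCaT and 4.26 ± 0.237 in TIGK at 0 h.

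IL1RL1, the interleukin-33 receptor ST2, rose at 6 h and fell far below its starting level by 24 h in both lines. In HaCaT it was 18.4, 13.3 and 22.0 CPM at 0 h, 36.8, 39.7 and 39.3 CPM at 6 h, and 0.508, 0.682 and 1.11 CPM at 24 h. In TIGK it was 4.49, 6.87 and 4.16 CPM at 0 h, 20.4, 18.8 and 21.3 CPM at 6 h, and 0.196, 0.784 and 0.137 CPM at 24 h. Within each line the 3 times did not overlap. The rise at 6 h was 2.16-fold in HaCaT (log2 1.11, SE 0.20, adjusted p = 0.0132) and 3.94-fold in TIGK (log2 1.98, SE 0.22, adjusted p = 2.02e-06). By 24 h IL1RL1 was 23.1-fold below 0 h in HaCaT (log2 -4.53, SE 0.29, adjusted p = 1.7e-11) and 13.4-fold below in TIGK (log2 -3.74, SE 0.37, adjusted p = 2.83e-08).

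The HaCaT call of IL1RL1 at 6 h depended on single libraries. It was lost without HaCaT 0 h A (adjusted p = 0.0907), 0 h B (0.137), 6 h A (0.0594), 6 h B (0.0528) or 6 h C (0.0716), with log2 values between 0.94 and 1.28 over all libraries left out. HaCaT was higher than TIGK by 3.49-fold at 0 h (adjusted p = 9.78e-08) and by 1.91-fold at 6 h (0.000198). At 24 h the value was 2.02-fold with an adjusted p of 0.0974, and it became 0.00642 without TIGK 24 h B, whose 12 counts stand beside 3 and 2, 0.0404 by DESeq2 and 0.0471 without the filter. The responses at 6 h differed by -0.87 on the log2 scale (adjusted p = 0.227, 0.0489 by DESeq2 and 0.0304 without the filter). The gene model of IL18R1 overlaps IL1RL1 on the same strand and held 362 counts in all libraries against 4079 for IL1RL1. How reads in shared sequence were counted is not known.

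Calls are counted here over the family beside their share among all genes, and a share near that of all genes is no result about the family. HaCaT differed from TIGK in 7 of 9 tested members at 0 h (2 higher, 5 lower), where 62.6% of all genes tested were called, 29.3% higher and 33.3% lower. At 6 h 8 members were called (3 higher, 5 lower, against 62.6% of all genes, 29.8% higher and 32.8% lower), and at 24 h 6 members (3 higher, 3 lower, against 61.7%, 28.6% higher and 33.1% lower). After the scratch 1 member, IL1RL1, was called at 6 h in HaCaT, where 0.201% of all genes were called (0.138% higher, 0.0632% lower). The same gene was called in TIGK, against 3.62% of all genes (2.5% higher, 1.12% lower). At 24 h 4 members were called in HaCaT (IL1A and IL1B higher, IL1RL1 and IL33 lower, against 31.4% of all genes, 15.5% higher and 15.9% lower). In TIGK 4 were called at 24 h (IL36RN higher, IL1RAP, IL1RL1 and IL33 lower, against 32.3%, 15.3% higher and 17% lower). The contrasts of a line share its 0 h libraries. The line difference in response was called by edgeR for 0 of 9 members at 6 h (0.752% of all genes, 0.218% higher and 0.534% lower; 2 members had an unadjusted p under 0.05 and DESeq2 called 1) and for IL1A and IL1B at 24 h, both higher in HaCaT (13.5% of all genes, 7.07% higher and 6.45% lower).

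**Figure D3:**
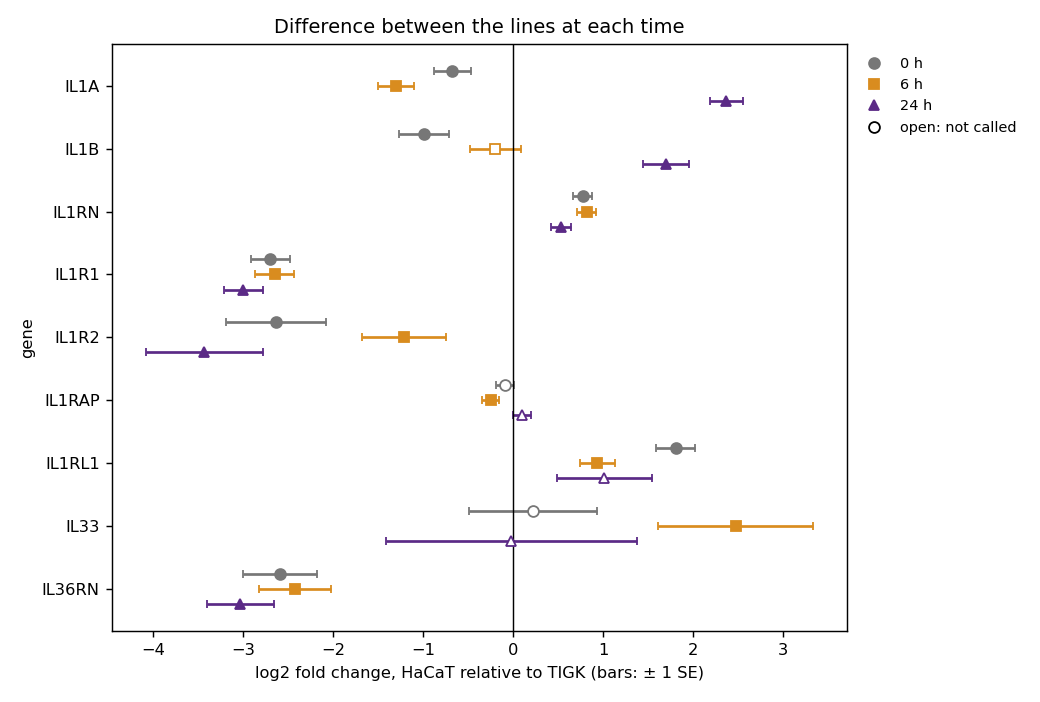
Log2 fold change of HaCaT relative to TIGK (x axis, bars ± 1 SE) for the 9 tested genes (y axis) at 0, 6 and 24 h. Filled symbols were called and open ones not. IL1A and IL1B move from below 0 at 0 h to 2.37 and 1.69 at 24 h, and IL1R1 stays between -2.995 and -2.65.

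**Figure D4:**
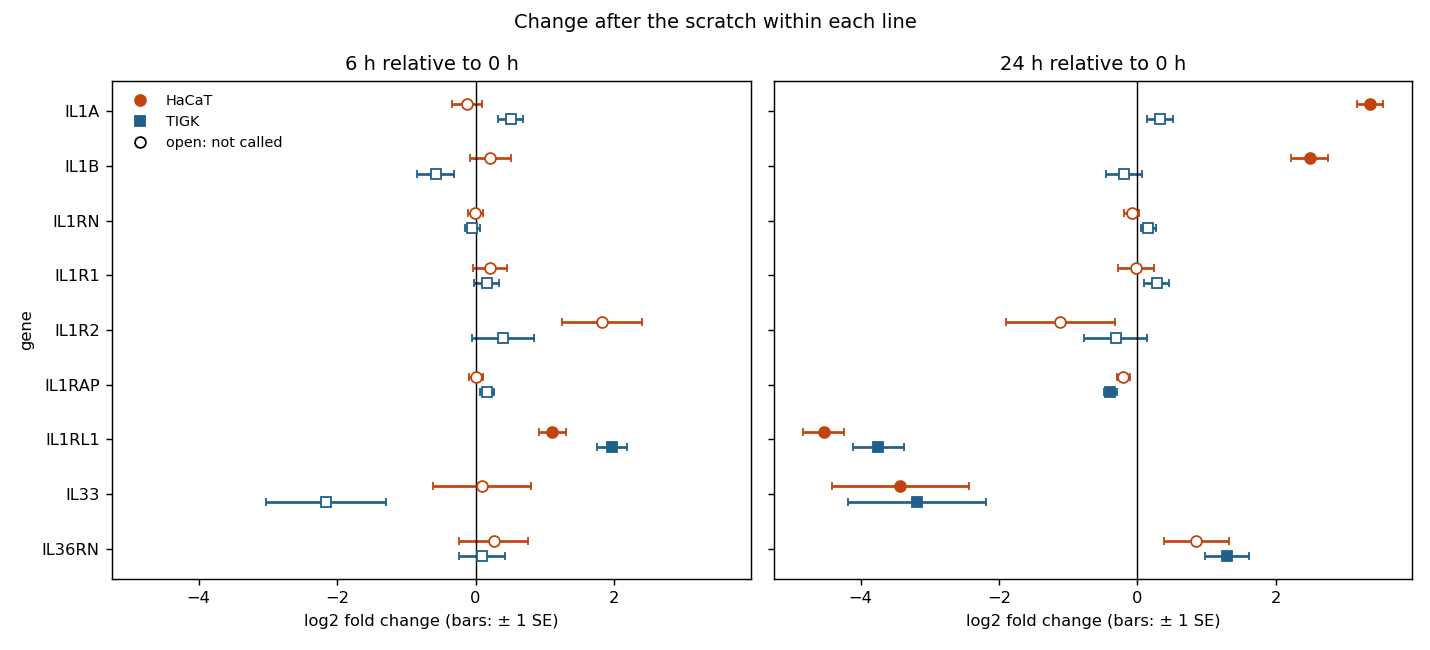
Log2 fold change relative to 0 h (x axis, bars ± 1 SE) for the 9 tested genes (y axis) in HaCaT (circles) and TIGK (squares), at 6 h on the left and 24 h on the right. Filled symbols were called. IL1RL1 is to the right of 0 at 6 h and to the left at 24 h in both lines, and IL1A and IL1B are far to the right in HaCaT at 24 h.

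The order of the members per length showed the same turn. IL1RN ranked first in all 6 groups, from 15.8 ± 1.98 FPKM in TIGK at 6 h to 27.6 ± 2.74 FPKM in HaCaT at 0 h, and did not overlap the member below it. IL1RAP ranked second in HaCaT at 0 h (5.58 ± 0.347 FPKM) and in TIGK at every time. IL1RL1 was second in HaCaT at 6 h (6.57 ± 0.259 FPKM), where it overlapped IL1RAP. IL1A ranked 4 in HaCaT at 0 h and 6 h and 2 at 24 h, at 16.2 ± 0.652 FPKM. In HaCaT at 24 h IL1RAP and IL1B overlapped each other, and IL36G, IL36RN, IL1R1 and IL1RL1, in that order, each overlapped its neighbour. IL33 was last in both lines at 24 h.

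Other genes of the family were read from lists. Of the 12 ligands, antagonists and binding proteins, 7 passed the filter. Outside the members these were IL18 and its binding protein IL18BP. IL18 rose 1.47-fold in TIGK at 24 h (83.6 ± 6.51 to 123 ± 13.2 CPM, adjusted p = 2.64e-05), and in HaCaT it was 87.8 ± 5.69 and 79.8 ± 7.10 CPM (adjusted p = 0.263). The responses differed by -0.69 on the log2 scale (adjusted p = 0.000397). IL18BP was 1.60-fold lower in HaCaT at 0 h (adjusted p = 0.00204).

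Among the receptors, 7 of 10 passed the filter and 5 differed between the lines at 0 h (2 higher, 3 lower in HaCaT), a share near the 62.6% of all genes tested (29.3% higher, 33.3% lower). These counts include the members already described. Without the members 3 receptors were tested, of which 1 was higher and 1 lower in HaCaT. IL1RL2, the interleukin-36 receptor, was 3.28-fold lower in HaCaT at 0 h (5.02 ± 0.568 against 16.5 ± 1.36 CPM, adjusted p = 3.62e-09). It fell 2.63-fold by 24 h in HaCaT (adjusted p = 1.01e-05) and 1.51-fold in TIGK (adjusted p = 0.00555). SIGIRR, an inhibitory receptor of the family, was 2.43-fold higher in HaCaT at 0 h (adjusted p = 3.57e-07) and rose 1.54-fold there by 24 h (adjusted p = 0.00338). IL18RAP had no count in any library.

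Of 16 genes that process and release interleukin-1, 13 were tested, and at 0 h 5 were higher and 5 lower in HaCaT, near the 29.3% and 33.3% of all genes. The inflammasome adaptor PYCARD was 3.26-fold higher (78.6 ± 3.64 against 24.2 ± 1.302 CPM, adjusted p = 9.57e-12) and the sensor NLRP1 2.30-fold higher (adjusted p = 5.11e-10). CAST, the inhibitor of the calpains that cleave pro-interleukin-1α, was 3.07-fold higher (adjusted p = 1.29e-14). These were the 3 genes of the list with the lowest adjusted p. CASP1, the caspase-1 gene, was among the 5 lower ones (2.16-fold, adjusted p = 4.59e-09). At 24 h 2 of the 13 rose and 2 fell in HaCaT, near the 15.5% and 15.9% of all genes. In TIGK 6 rose and 1 fell, where 15.3% of all genes rose and 17% fell. The calpain subunit gene CAPN2 fell 1.72-fold in HaCaT by 24 h (441 ± 18.3 to 257 ± 5.69 CPM, adjusted p = 8.44e-10). The line difference in the 24 h response was lower in HaCaT for 6 of the 13 and higher for 0, against 6.45% and 7.07% of all genes.

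Of 23 genes that carry the receptor signal, 22 were tested, and at 0 h 11 were higher and 4 lower in HaCaT, where 29.3% of all genes were higher and 33.3% lower. IRAK3, a kinase-like inhibitor of the pathway, had no count in any of the 9 HaCaT libraries and stood at 32.3 ± 2.40, 27.7 ± 0.388 and 24.0 ± 5.43 CPM in TIGK at 0, 6 and 24 h. TIGK was at least 171-fold higher at 0 h, taking 3 counts in each HaCaT library as the limit. The kinase gene IRAK4 was 2.80-fold higher in HaCaT (17.4 ± 0.385 against 6.22 ± 0.634 CPM, adjusted p = 1.62e-09), as was the adaptor TAB3 by 2.42-fold (adjusted p = 9.69e-12). At 24 h 3 of the 22 rose and 5 fell in HaCaT (15.5% and 15.9% of all genes), and 5 rose and 3 fell in TIGK (15.3% and 17%), so these counts were near those of all genes. PELI1, a ubiquitin ligase of the pathway, rose 1.75-fold in HaCaT (adjusted p = 1.51e-06) and 1.43-fold in TIGK (adjusted p = 0.00052).

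Genes that interleukin-1 or interleukin-36 is known to raise in keratinocytes were read as a list of 28, of which 23 were tested. In HaCaT at 24 h 15 of the 23 rose and 0 fell, where 15.5% of all genes rose and 15.9% fell, with a median log2 change of 1.73 over the list against 0.0036 over all genes tested (1.73 also with CXCL3 at its lower bound). In TIGK 6 rose and 0 fell (15.3% and 17% of all genes), with a median of -0.01 against -0.01 over all genes (0.0038 without TNF, which had no count at 24 h). The line difference was higher in HaCaT for 14 and lower for 0, against 7.07% and 6.45% of all genes (median 1.08, and 0.86 without the 2 genes that had no count in a group). These genes also answer other signals, and the list was chosen with earlier results known. CXCL8, a neutrophil chemokine, rose from 2.09 ± 0.953 to 61.9 ± 7.65 CPM in HaCaT (29.5-fold, adjusted p = 1.75e-13) and from 3.95 ± 0.888 to 6.67 ± 0.550 CPM in TIGK (1.70-fold, adjusted p = 0.0129). BIRC3, an inhibitor of apoptosis and NF-kB target, rose 10.2-fold in HaCaT (9.39 ± 0.988 to 96.1 ± 2.61 CPM, adjusted p = 1.15e-15) and 3.28-fold in TIGK (adjusted p = 2.78e-10). The NF-kB feedback gene TNFAIP3 rose 7.26-fold in HaCaT (adjusted p = 7.33e-16) and 1.36-fold in TIGK (adjusted p = 0.00166). NFKBIZ, a nuclear regulator of the same pathway, rose 3.30-fold in HaCaT (15.1 ± 0.193 to 49.7 ± 1.96 CPM, adjusted p = 8.42e-12), and in TIGK it was 10.8 ± 0.769 and 11.003 ± 0.567 CPM (adjusted p = 0.924). CXCL3 had no count in HaCaT at 0 h and was at least 13.6-fold higher at 24 h, and its reads may be shared with the closely similar CXCL1 and CXCL2.

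At 0 h 6 of the 23 tested genes of the same list were higher and 8 lower in HaCaT, against 29.3% and 33.3% of all genes. PTGS2 was 3.45-fold higher there (adjusted p = 8.06e-09). Not every tested gene of the list was called in HaCaT at 24 h. The alarmin gene S100A9 stood at 1.02 ± 0.141 CPM at 0 h and 1.20 ± 0.878 CPM at 24 h (adjusted p = 0.704), and it was 25.6-fold lower than in TIGK at 0 h (adjusted p = 1.47e-12). The adhesion gene ICAM1 was 12.2-fold lower in HaCaT at 0 h (adjusted p = 6.09e-16). It rose there 3.57-fold by 24 h (adjusted p = 4.16e-09), to 11.98 ± 1.76 CPM against 36.3 ± 1.44 CPM in TIGK. DEFB4A had no count in any library.

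**Figure D5:**
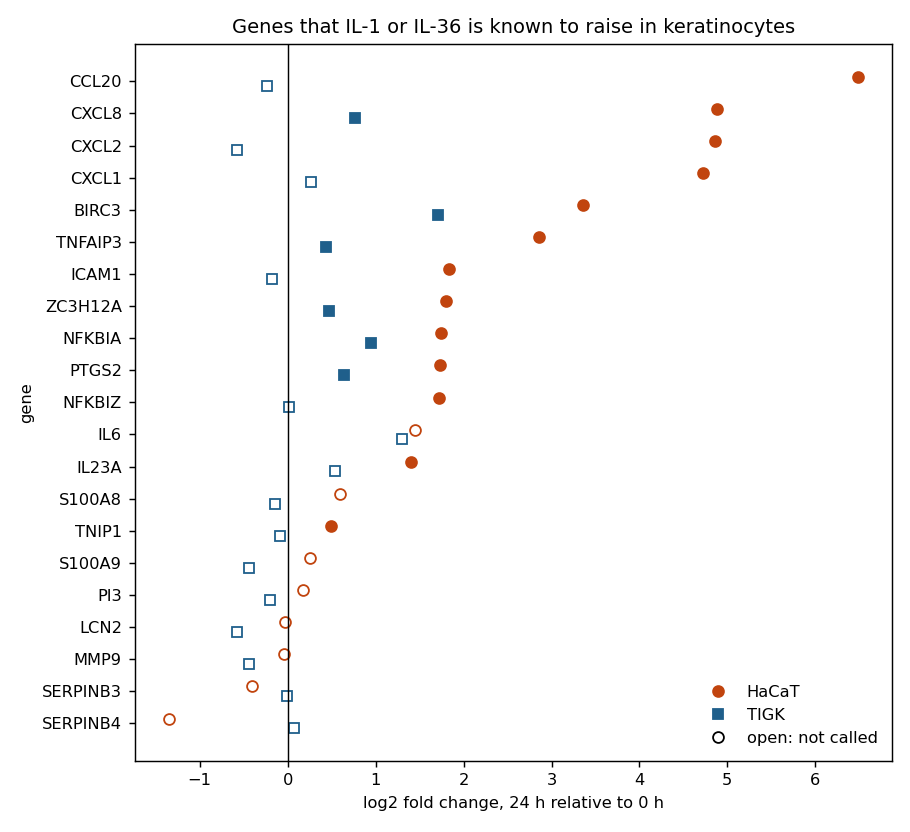
Log2 fold change at 24 h relative to 0 h (x axis) for genes that interleukin-1 or interleukin-36 is known to raise (y axis), in HaCaT (circles) and TIGK (squares), without error bars. Filled symbols were called, and the tested genes CXCL3 and TNF are not drawn because a group had no count. The filled circles lie to the right of 0, up to 6.49 for CCL20, whose HaCaT level at 0 h was near 0.

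Over the 18 libraries, the protein-coding genes whose log2 CPM was most like that of IL1A by Pearson's r were NAB2 (0.967), ADM (0.967) and CSRNP1 (0.959). For IL1B they were NAB2 (0.941), NINJ1 (0.932) and ACSS2 (0.927), and IL1A and IL1B had an r of 0.881 with each other. For IL1R1 they were SERPING1 (0.993), DLL1 (0.992) and APOE (0.992), all higher in TIGK at each time. For IL1RL1 they were EIF3J (0.979), SBDS (0.978) and CD59 (0.968), all highest at 6 h and lowest at 24 h in both lines. The gene most like each of the others was EEFSEC for IL1RN (0.966), DYRK3 for IL1R2 (0.929), NFRKB for IL1RAP (0.933), DHX30 for IL33 (0.875) and RAD9B for IL36RN (0.969). The points share the 6 groups, so these values describe group patterns.

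The authors' deposited tables of comparisons list 6 of the 10 genes. They give IL1A a log2 change of 3.37 in HaCaT at 24 h and IL1RL1 one of -4.54, and for IL1R1 in HaCaT relative to TIGK at 0 h the authors' deposited table gives -2.68.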

How the data were processed

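The submitters' processing notes name build hg38 and the tools featureCounts 1.5.0-p3, HISAT2 2.0.5 and StringTie 1.3.3b. The role of each tool, the annotation release and the strand setting are not given in the sources used here. The authors deposited read counts per gene, FPKM, gene length with other gene annotation, and tables of comparisons with log2 fold changes and p-values. The test was run in R 4.3.3 with edgeR 4.0.16 on the counts of all 18 libraries: filterByExpr, TMM scaling, 6 group means, 12 residual degrees of freedom, quasi-likelihood F test (two-sided), called at a Benjamini-Hochberg value under 0.05 over 17409 genes. CPM values are counts scaled to the TMM library size. SE is the log2 fold change divided by the square root of F, and 95% intervals from it use 12 degrees of freedom and are approximate. Bounds use 3 counts per library, and they and the counting intervals (exact binomial) cover counting error only. DESeq2 1.42.0, RLE scaling, no filter, fits of the compared groups, a letter block and left-out libraries were alternatives. The fitting code was tested on simulated data. The members and gene lists were chosen with earlier results of these data known. Named beyond the members were, per list, up to 3 genes with the lowest adjusted p at 0 h between lines and 3 in HaCaT at 24 h, genes without a count, TNFAIP3 and NFKBIZ, and 3 genes most alike per member. CCL20 and CASP1 were named after their values were seen.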

Additional observations from a re-analysis of the deposited data

Results flagged for a closer look

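The response to the scratch at 24 h differed between the lines for 2 members by the test of the difference itself. For IL1A the HaCaT response exceeded the TIGK response by 3.04 on the log2 scale (SE 0.27, edgeR adjusted p = 2.33e-08), and the 3 HaCaT libraries at 24 h were above all 15 others. Leaving out each library in turn gave 2.92 to 3.25. For IL1B the difference was 2.68 (SE 0.38, edgeR adjusted p = 1.91e-05), with 2.47 to 2.94 over the libraries left out. No cause was tested.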

How the results depend on the processing

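Of 1927 member values recomputed over 24 settings, 1900 kept their side of the threshold, 21 lost a call and 6 gained one. With a call in either fit 0 changed sign, while values without a call could change sign. For IL33 between the lines at 24 h the log2 value ran from -3.29 to 3.26 leaving out each library. Many left-out libraries were outside the groups compared and entered only through the shared fit. Of the levels per length, 60 of 60 moved by less than the spread between libraries. Every lost or gained member call stands beside its result. HaCaT at 6 h had 35 genes called, against 107 by DESeq2, 130 without the filter, 200 with only the compared groups, 77 without TIGK 0 h C and 6 h C, and 4 to 47 leaving out each library, which gave 0 or 1 members. TIGK at 6 h had 630, against 359 with only the compared groups and 350 to 817 leaving out each library. The line difference at 6 h had 131, against 300 by DESeq2 and 293 without the filter, each with 1 member, and 68 to 260 leaving out each library. Between the lines at 6 h, 5 to 8 members were called leaving out each library. Cause was not tested. Whether letters pair the libraries was not tested against chance. Same-letter deviations correlated between -0.03 and 0.39, and above 0.1 in 2 of 21 pairs. These were TIGK 0 h with TIGK 6 h for letter A (0.105) and for letter C (0.388), with 0.0944 for letter B. The letter C libraries there are those that stand apart in genes with a count. A library was most like its own letter in another group of its line in 17 of 36 cases. With a replicate block by letter 70 genes were called in HaCaT at 6 h and 212 for the line difference at 6 h, and no call of a member changed. Depth limits IL33, IL36G, IL1R2 and, at 24 h, IL1RL1, which had few counts.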
